A study of Mus musculus with 3 samples.

Results

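The control array measured RNA from mouse plasmacytoid dendritic cells that had been matured with CpG and given neither study compound, and it was 1 of 3 arrays in the series. It was chosen by its title, and its 19505 named genes were ranked by their log2 level, of which 10490 lay at or above a background level set by receptor genes that blood cells do not normally use. The cells were grown from the marrow of wild-type male BALB/c mice aged 4 to 5 weeks, cultured 6 to 9 days in 100 ng/mL Flt3 ligand, then exposed to CpG oligodeoxynucleotides for maturation and sorted by flow cytometry. The other arrays held such cells after 12 h with astragaloside IV or 12 h with oxymatrine, followed by CCL21 for 1 h. Whether the control cells also received CCL21 or a vehicle is not stated, nor are the surface markers used in the sort or the number of mice pooled. With a single array there is no replicate, so no level has a measured error and nothing was tested.

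Plasmacytoid dendritic cells detect viral and other nucleic acids inside endosomes, chiefly through the toll-like receptors TLR7 and TLR9, and answer with type I interferon. The transcription factor TCF4 (E2-2) keeps them in this lineage, while ID2, an inhibitor of such E proteins, accompanies the conventional dendritic cell fate. CpG DNA is a TLR9 ligand, and on maturation dendritic cells gain costimulatory molecules and CCR7, the receptor that takes them to lymph nodes along CCL19 and CCL21.

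Levels in the control array formed a dim mass and a long bright shoulder. The median over all 19505 genes was 5.75 on the log2 scale, with quartiles at 4.09 and 9.67 and a maximum of 19.31. The 1412 olfactory and vomeronasal receptor genes had a median of 3.97 and ran from 2.43 to 7.45, and their 95th percentile, 5.35, was taken as the background level. By that measure 53.8% of all genes, or 57.6% of the 18093 genes that are not such receptors, were above background, and 2092 genes reached 12 or more. The border is soft: 1252 genes lay within 0.5 below it and 882 within 0.5 above it. The 23 antigenomic background controls ranged from 2.47 to 6.82 with a median of 5.51, so a level between 5.35 and 7.45 was not clear of both measures. The 63 ERCC probe sets, which detect spike-in RNA, had a median of 4.42 and a maximum of 9.06. Whether such RNA was added is not stated. Levels up to that maximum were therefore not clear of every control on the array.

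**Figure D1:**
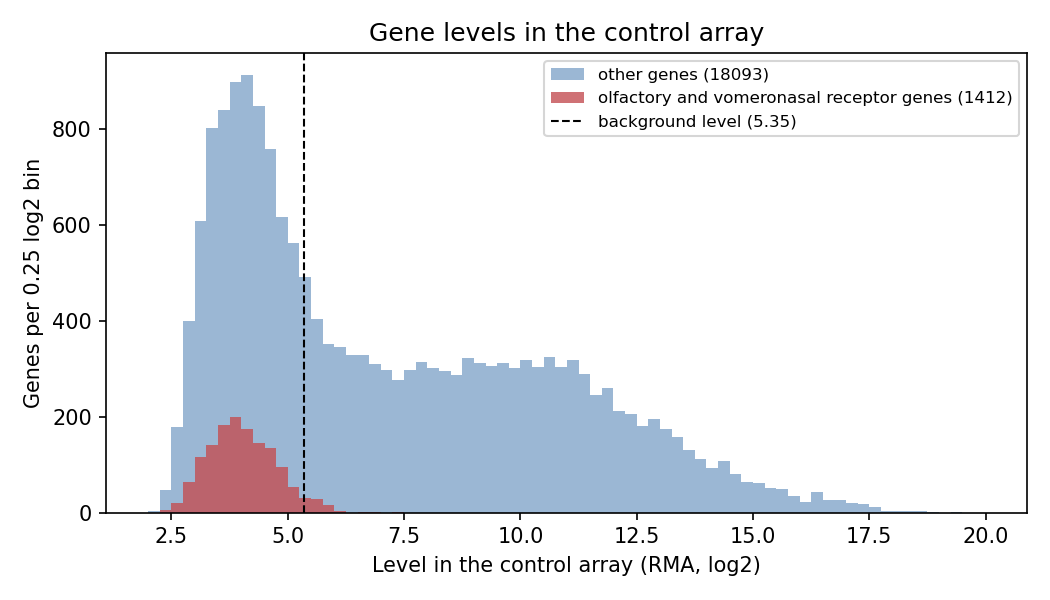
Number of genes per 0.25 log2 bin (vertical axis) against level in the control array (horizontal axis, RMA log2), for the 1412 receptor genes and the 18093 other genes. The receptor genes end at 7.45, while the other genes reach 19.31, and the dashed line marks the background level of 5.35.

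A level is the brightness of a probe set, which depends on the affinity of its probes as well as on RNA, so the order of genes is an order of signals. How much the choice of probes matters can be read from the 55 genes with several probe sets. Their highest and lowest probe sets lay a median of 0.70 apart and a 90th percentile of 2.91 apart, 22 of the 55 were more than 1 apart, and the probe sets of Syne1 stood at 4.49 and 11.31. Neighbours in the order closer than this are not separated by these data. Of the genes, 185 exceeded 16, the most that a plain log2 of a 16-bit scanner reading can give. Which processing step gave such levels was not tested, and the RMA variant is not stated. Differences between genes are therefore not given as fold changes. The brightest genes were largely common to the series: 197 of the 200 brightest genes were also among the 200 brightest with astragaloside IV and 196 with oxymatrine. The 3 arrays come from 1 table. Labelled as male, the cells had Y-linked Eif2s3y at 11.36, Uty at 10.68 and Kdm5d at 8.53, while Usp9y at 3.06 and Zfy1 at 2.47 were not above background.

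The brightest genes had varied roles. Ribosomal protein genes supplied 24 of the 200 brightest and actin genes 15, more than any other group counted here. Fth1, the ferritin heavy chain, ranked 1st at 19.31, and Ftl1, the light chain, ranked 10 at 18.30. B2m, the invariant subunit of class I major histocompatibility molecules, stood at 19.29, Actb at 18.92, the elongation factor gene Eef1a1 at 18.83 and Tmsb4x, which sequesters actin monomers, at 18.72. Srgn, the proteoglycan core of secretory granules, was at 18.63, and Spi1, which encodes the myeloid transcription factor PU.1, ranked 7 at 18.61. The chemokine gene Ccl5 ranked 8 at 18.60 and Fscn1, the actin-bundling protein of mature dendritic cells, ranked 9 at 18.36. They were followed by Rps23 at 18.28, Tmem123, a surface mucin of dendritic cells, at 18.17, Cst3, the protease inhibitor cystatin C, at 18.15 and the polarity GTPase gene Cdc42 at 18.13.

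Ranks 16 to 32 held endosomal and cytoskeletal genes together with further regulators. Laptm5, a lysosomal membrane protein of blood cells, was at 17.94, Cxcl16, a chemokine anchored in the membrane, at 17.83, the late endosomal GTPase gene Rab7 at 17.75 and Lgmn, an endosomal protease that processes antigen and TLR9, at 17.61. Arpc2 of the actin-nucleating complex stood at 17.71, the actin bundler Lcp1 at 17.62, the actin-severing Cfl1 at 17.49 and the tubulin gene Tuba1c at 17.51. Itm2b was at 17.68, Glipr1 at 17.62, the RNA-binding Hnrnpk at 17.54, Eef2 at 17.53, Id2 at 17.52, Pabpc1, which binds poly(A) tails, at 17.51, Ppia at 17.49 and Serinc3 at 17.48. The 200 brightest genes, or 1.03% of all, began at 15.91. They comprised 195 named genes, 3 numbered clones and 2 small RNAs, and 96 of the 200 belonged to at least 1 of 41 gene groups set up for this description. Groups share genes, and they are described by counts and medians.

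All 6 genes used to mark the cells were above background, at very different ranks. Ccr7 ranked 149 at 16.32, Irf7, which switches on interferon alpha genes, 370 at 15.05, Tcf4 579 at 14.37, Tlr9 1586 at 12.62 and Bst2, a tetherin that marks mouse plasmacytoid dendritic cells and is also induced by interferon, 2015 at 12.09. Siglech, the surface lectin most closely tied to this lineage, ranked 5692 at 8.99, above 70.8% of genes. The background level that all 6 passed was also passed by 53.8% of all genes. The lineage's own lectin was the dimmest of the 6 and lay just under the brightest ERCC probe set, at 9.06.

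Of 14 measured transcription factors that plasmacytoid dendritic cells use, 12 were above background, with a median of 10.48. The brightest, Spi1 at 18.61, Etv6, which ranked 187, and Stat3 at 15.50, also serve other myeloid cells. Irf8, needed by plasmacytoid and type 1 conventional dendritic cells alike, was at 14.20, the lymphoid factor Ikzf1 at 12.96 and Sp140 at 12.40. More restricted partners of TCF4 were dimmer, with Bcl11a at 8.57, Spib at 8.03, Cbfa2t3 at 6.66 and Mycl at 5.64. Klf4, a monocyte factor, at 5.28 and Cux2 at 4.50 were not above background. The 12 of 14 that were, or 85.7%, stand beside 57.6% of all genes apart from the olfactory and vomeronasal receptors. Id2 at 17.52 and Tcf4 at 14.37 were thus bright in the same RNA.

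Among 17 measured surface and identity genes of the lineage, 12 were above background, and the median was 7.75. Their share of 70.6% stands beside 57.6% of all genes apart from the olfactory and vomeronasal receptors. Ptprc, which encodes CD45 and its B220 form, stood at 15.54, Ly6c2 at 12.62, the inhibitory receptor gene Lair1 at 11.02, Ccr9, a gut homing receptor, at 9.46 and Cox6a2, a cytochrome oxidase subunit restricted to muscle and these cells, at 9.21. Il3ra was at 8.10, Lag3 at 7.75, Klk1 at 7.01, Ly6d at 6.89 and Havcr1 at 6.47. Not above background were Pacsin1 at 4.99, Fcrla at 4.23, Cd209d at 4.12, Atp2a1 at 3.89 and Dntt, the nucleotide transferase of lymphoid progenitors, at 3.03.

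Monocyte and macrophage genes were as bright in rank as the transcription factors of the lineage. Of 20 measured, 18 were above background, or 90%, beside 57.6% of all genes apart from the olfactory and vomeronasal receptors. The median of the 20, 10.42, outranked 79.9% of genes, against 79.6% for those transcription factors and 63.1% for the surface genes. Ms4a7 stood at 15.73, Adgre1, which encodes F4/80, at 14.12, the lysozyme gene Lyz2 at 13.88, Apoe at 13.83, the high-affinity Fc receptor gene Fcgr1 at 13.47 and Csf1r, the receptor for macrophage colony-stimulating factor, at 12.86. The complement genes C1qb, C1qc and C1qa were at 11.39, 11.32 and 9.18 and the lipopolysaccharide coreceptor gene Cd14 at 10.40, while Cd163 at 4.81 and F13a1 at 3.63 were not above background. Whether these transcripts came from the sorted cells themselves or from others in the sorted fraction was not tested, and in bulk RNA fewer cells of a type and less RNA per cell cannot be told apart.

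Genes of the Ms4a family, membrane proteins encoded side by side and often used to tell myeloid from B cells, divided sharply. Ms4a4c at 17.35, Ms4a6d at 17.20, Ms4a6c at 15.78, Ms4a7 at 15.73, Ms4a6b at 13.46 and Ms4a4b at 11.03 were bright. Ms4a4d stood at 6.47 and Ms4a1, which encodes the B cell antigen CD20, at 5.55, close to background, and Ms4a2, a chain of the IgE receptor, was below it at 3.63. Other bright myeloid genes were the C3a receptor gene C3ar1 at 16.54, the serum amyloid gene Saa3 at 16.63, the phagocyte oxidase genes Ncf1 at 16.60 and Cybb at 16.53, and Tgfbi at 17.29.

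Genes that define conventional dendritic cells were mixed. For type 1 cells 12 of 16 were above background with a median of 7.39, led by Id2, Irf8 and the adhesion gene Cadm1 at 11.80. The 4 not above background were the lectin gene Clec9a at 4.46, Xcr1 at 3.50, Snx22 at 4.03 and Tlr11 at 3.43. The 12 above it also included Tlr3 at 9.19 and Itgae at 6.50. For type 2 cells 10 of 15 were, with a median of 7.09, led by Sirpa at 14.90, Itgam at 14.69 and Clec12a at 13.65. Here Klf4, Dtx1 at 4.53, Tbx21 at 4.47, Mgl2 at 3.33 and Cd209a at 3.24 were not. The shares above background, 75% for type 1 and 66.7% for type 2, stand beside 57.6% of all genes apart from the receptors.

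Genes of neutrophils and of B and plasma cells had medians below background, and those of T and natural killer cells a median of 5.91, just over it. Among 18 measured neutrophil genes 4 were above it, Lcn2 at 13.21, Csf3r at 10.59, Mmp8 at 7.94 and S100a8, narrowly, at 5.52, and the median was 3.64. The granule genes Mpo, Elane, Camp, Ltf and Ngp lay between 3.06 and 5.19. For B and plasma cells 5 of 14 were above, or 35.7%, and the neutrophil share was 22.2%. Sdc1 at 12.42, Cd79b at 10.13 and Ebf1 at 7.81 were among the 5. Pax5 at 5.23, Cd79a at 4.67, Cd22 at 4.59 and Jchain at 4.09 were not. For T and natural killer cells 10 of 18 were above, or 55.6%, near the 57.6% of all genes apart from the receptors, and none exceeded 9.50, the level of Klrk1. The receptor chains Cd3e at 4.55, Cd3d at 3.89 and Cd3g at 3.06 and the killer genes Ncr1 at 3.93 and Prf1 at 3.67 were not, although Gzmb, a granzyme that plasmacytoid cells also make, stood at 8.99.

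Mast cell genes were above background in 2 of 11 cases, progenitor genes in 6 of 11, erythroid and megakaryocyte genes in 5 of 10 and stromal or epithelial genes in 5 of 15. None of these groups exceeded the 57.6% of all genes apart from the olfactory and vomeronasal receptors. The progenitor group and the erythroid and megakaryocyte group lay nearest to that share, so their counts do not set them apart from genes at large. Single genes of these groups were bright: Kit, the stem cell factor receptor gene, which is in both the mast cell and the progenitor group, at 13.51, the carbonic anhydrase gene Car2 at 14.02 and Kdr, a receptor for vascular endothelial growth factor, at 13.43. Other members were dim, such as Cpa3 at 4.23, Gata2 at 3.88, Klf1 at 3.62, Cdh5 at 4.16 and Col3a1 at 3.56. As a second silent reference, 4 of 35 genes of lens, liver, muscle, brain, pancreas and germ cells exceeded background, with a median of 4.37 and a highest level of 6.99 for Myh7.

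**Figure D2:**
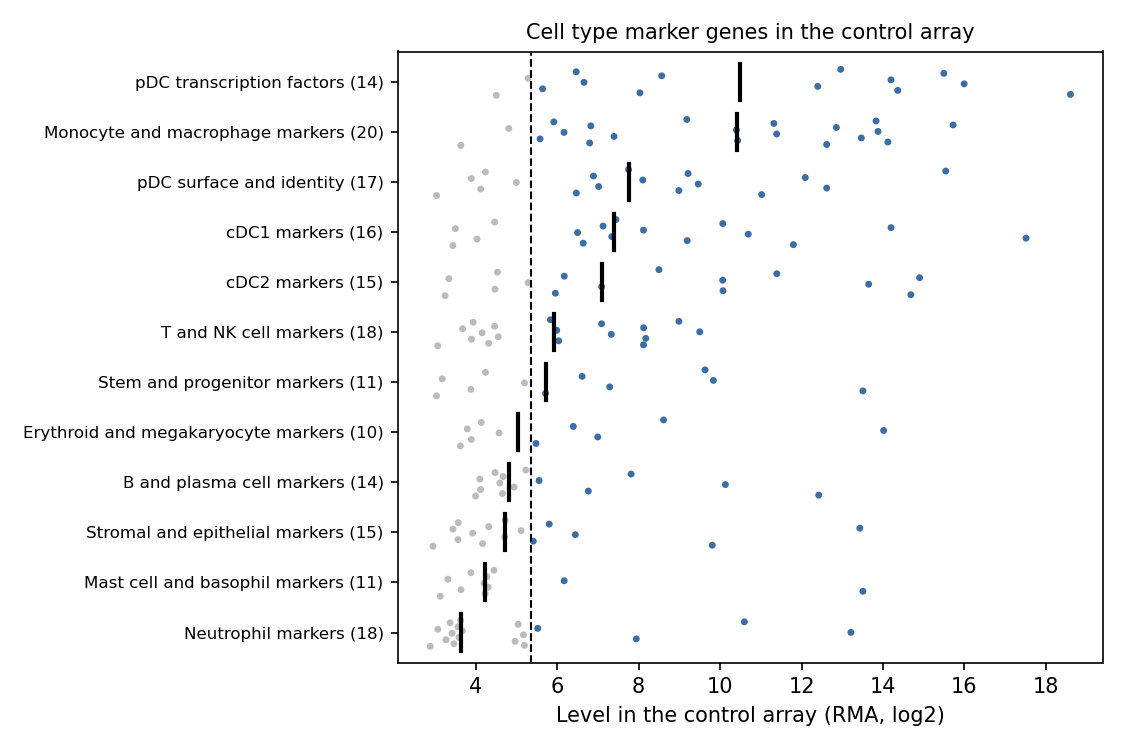
Levels of cell type marker genes in the control array (horizontal axis, RMA log2), 1 point per gene, with the number of measured genes in brackets. Black bars are medians, the dashed line is the background level of 5.35 and grey points lie below it: the medians run from 3.64 for neutrophil genes to 10.48 for transcription factors of plasmacytoid dendritic cells.

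The pathway by which these cells sense CpG was bright in the genes measured, 19 of 25 listed. All 19 of these genes of endosomal toll-like receptor signalling were above background, with a median of 12.66, where the median over all genes was 5.75. Tlr3, Tlr11 and Tlr13 were not in this list and are given below. Of the receptors, Tlr7, which binds single-stranded RNA, stood at 13.45, Tlr9 at 12.62 and Tlr8 at 8.86. Of the proteins that bring them to endosomes and cut them there, Lgmn was at 17.61, the cathepsin gene Ctss at 15.72, the chaperone gene Hsp90b1 at 15.54, Ap3b1, which sorts TLR9 to interferon-producing compartments, at 14.19, the escort gene Unc93b1 at 13.25, the transporter gene Slc15a4 at 12.66 and the chaperone gene Cnpy3 at 11.72. Of the signalling components, the adaptor gene Myd88 was at 10.98, Btk and Traf6 at 10.84 each, Irak2 at 9.53, Ikbkb at 7.57 and Irf5 at 7.14. Plac8, strongly used by plasmacytoid cells, stood at 14.31.

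Several toll-like receptor genes outside that list, of the cell surface and others, were bright too. Tlr1 at 13.06, Tlr2 at 12.92, which recognise lipopeptides, and Tlr4 at 11.72, with its partner Ly96 (MD-2) at 16.39, recognise bacterial surface molecules, and Cd180, a relative of Tlr4, ranked 105 at 16.62. Tlr13, a sensor of bacterial ribosomal RNA, was at 11.56, Tlr3 at 9.19 and Tlr6 at 8.97, while the flagellin receptor gene Tlr5 at 4.33 and Tlr11 were not above background. In all 10 of 12 measured Tlr genes were.

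Interferon genes themselves were near background. Of 19 measured, 4 were above it: Ifna5 at 7.03, Ifng at 6.84, Ifnl3 at 6.10 and Ifnb1 at 5.74, all within the range of the receptor genes, which ended at 7.45. The other 15 lay between 2.93 for Ifnz and 5.24 for Ifna1, with Ifna2 at 4.10, Ifna4 at 3.79, Ifna6 at 4.46 and Ifna16 at 4.75, and the median of the 19 was 4.10. Interferon alpha genes are near-identical copies whose probes may be shared, so single members are uncertain.

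Their regulators and targets were bright in the same array. All 8 measured interferon regulatory factor genes were above background, in the order Irf7 at 15.05, Irf1 at 14.49, Irf8 at 14.20, Irf2 at 12.07, Irf9 at 9.85, Irf4 at 8.50, Irf3 at 8.22 and Irf5 at 7.14. Irf7, Irf1 and Irf8 lie closer together than probe sets of 1 gene often do. Of the interferon receptors, Ifnar2 stood at 15.22, Ifnar1 at 11.95, Ifngr2 at 12.97 and Ifngr1 at 7.83, while Ifnlr1, which binds interferon lambda, was at 5.52. Tyk2 was at 14.10, Stat2 at 12.46 and Jak1 at 11.83, and the feedback inhibitor gene Usp18 at 13.92.

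All 49 measured interferon-stimulated genes were above background, with a median of 12.04 that outranked 89.4% of genes. The membrane-fusion inhibitors Ifitm2, Ifitm3 and Ifitm1 stood at 16.16, 15.17 and 14.37, the immunoproteasome gene Psmb8 at 15.94, Samhd1, which depletes nucleotides, at 15.67 and the peptide transporter gene Tap1 at 15.19. Guanylate-binding proteins, which attack pathogen membranes, were at 13.98 for Gbp4, 13.38 for Gbp2, 12.85 for Gbp3 and 12.77 for Gbp7. Antiviral effectors spread over a wide range, with Mx1 at 12.94, Ifit3 at 12.33, Ifit1 at 10.83, Isg15 at 10.35, Rsad2 at 8.78, Ifit2 at 8.38, Oas2 at 7.31 and Iigp1 at 6.49. Ifi207 of the DNA-sensing Ifi200 cluster ranked 157 at 16.27.

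Promoters of these genes were searched for an element through which interferon acts, the interferon-stimulated response element (ISRE), as GAAANNGAAA on both strands. Windows ran from 250 bases before to 50 after each RefSeq start site (build GRCm38.p6). The element occurred in 20 of 42 windows of the interferon-stimulated genes, or 47.6%, and in 3.35% of the 19143 windows of all genes matched. These genes were listed as interferon targets, so that share does not bear on their levels in this array. Windows were at hand for 36 of the 49 genes, of which 19 held the letters. Those 19 had a median level of 12.19 and the other 17 one of 12.78. Of interferon genes, 9 of 18 windows held it, although their median level was 4.10. Stretches around the matches are shown for genes named above, to let the elements be compared, with the matching letters in capitals, which read TTTCNNTTTC where the match is on the opposite strand. They lie at chr7:140955968-140956037 for Ifitm2 (minus strand), chr3:142620574-142620643 for Gbp2 (plus), chr8:71537557-71537632 for Bst2 (minus), chr19:34583343-34583446 for Ifit3 (plus), chr19:34640755-34640843 for Ifit1 (plus) and chr4:156200845-156200926 for Isg15 (minus).
Ifitm2: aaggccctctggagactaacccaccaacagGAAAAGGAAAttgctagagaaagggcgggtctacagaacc
Gbp2: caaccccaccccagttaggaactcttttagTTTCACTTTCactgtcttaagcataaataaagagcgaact
Bst2: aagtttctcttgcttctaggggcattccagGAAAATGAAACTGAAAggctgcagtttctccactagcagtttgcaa
Ifit3: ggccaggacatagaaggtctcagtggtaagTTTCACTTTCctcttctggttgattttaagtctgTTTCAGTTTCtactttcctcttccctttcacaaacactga
Ifit1: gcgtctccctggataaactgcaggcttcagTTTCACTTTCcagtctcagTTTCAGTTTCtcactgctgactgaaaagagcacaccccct
Isg15: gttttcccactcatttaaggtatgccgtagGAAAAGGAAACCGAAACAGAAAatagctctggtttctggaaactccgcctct

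Overlapping matches make longer runs of capitals in Bst2 and Isg15, whereas Ifit3 and Ifit1 each carried 2 separate matches. In Isg15 they began 78 bases before the start site, in Gbp2 59 and in Ifitm2 46. A match is a string of letters and was not shown to be bound in these cells.

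Genes of dendritic cell maturation were bright. Of 34 measured genes 31 were above background, with a median of 13.41, and 10 of them were among the 200 brightest, or 5 when the 500 brightest were taken and scaled to 200. Beside Fscn1, Tmem123, Cst3 and Ccr7, these included Samsn1 at 17.05, the survival genes Bcl2a1b at 17.02 and Birc3 at 16.59, the chemokine gene Ccl22 at 16.53, Traf1 at 16.47 and the costimulatory gene Cd80 at 16.46. Cd274, which encodes the inhibitory ligand PD-L1, stood at 14.79, Tnfrsf9 at 14.52, Cd83 at 14.12, Icosl at 13.57, Cd40 at 13.13 and Cd86 at 12.87. The T cell attractant gene Ccl17 at 5.20, Lamp3 at 4.27 and the costimulator gene Cd70 at 2.71 were not above background, and Tnfrsf4 was at 6.11. Bcl2a1b is 1 of several near-identical copies, with Bcl2a1a at 16.47 and Bcl2a1d at 16.43, which shared probes may not separate.

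For the transcription factor NF-kB, 16 of 16 measured subunit and inhibitor genes were above background, with a median of 12.98. Whether it drove the maturation genes was not tested. The subunit genes Rel at 16.45 and Rela at 15.33 outranked Nfkb2 at 14.47 and Relb at 12.27, and the inhibitors included Tnip3 at 16.56, Nfkbib at 15.45, Nfkbia at 15.21 and Tnfaip3 at 14.89, with Tnip2 the dimmest at 7.82.

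Cytokine genes were a group of extremes. Of 38 measured, 20 were above background, a share of 52.6% that is near the 57.6% of all genes apart from the receptors. Il6 ranked 169 at 16.15, the interleukin 1 antagonist gene Il1rn stood at 15.50, Il1b at 15.23, Tnf and Tgfb1 at 13.63 each, Ebi3, a subunit of interleukins 27 and 35, at 13.24, the suppressive Il10 at 12.88 and Il15 at 12.69. The lymphotoxin genes Ltb at 10.07 and Lta at 6.95 and Il16 at 7.58 were above background. The T cell cytokine genes Il2 at 3.81, Il4 at 3.35, Il5 at 4.80 and Il21 at 3.82 were not, nor were Il12a at 4.89, Il23a at 4.27, Csf2 at 4.23, Csf3 at 4.19 and, dimmest, Il11 at 3.02.

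Chemokine genes also ranged from the brightest genes to background, with 23 of 38 above it, or 60.5%, near the same 57.6%. Ccl5, which attracts T cells and monocytes, at 18.60, Cxcl16 at 17.83, Ccl3 at 16.55, Ccl22, which attracts regulatory T cells, at 16.53 and Ccl9 at 15.31 led the group, followed at a distance by Ccl4 at 11.67, the interferon-induced Cxcl10 at 11.07 and the neutrophil attractants Cxcl2 at 10.89 and Cxcl3 at 9.74. Ccl6 was at 9.32, Ccl2 at 9.08, Cxcl9 at 8.99, Pf4 at 8.61, Cxcl1 at 8.42, Cxcl11 at 8.19 and Ccl7 at 7.60. Levels between 5.35 and 7 were found for Cx3cl1 at 6.88, Xcl1 at 6.66, Ccl25 at 6.63, Ccl12 at 6.60, Ccl24 at 5.60, Ccl21a at 5.54 and Ccl8 at 5.47. Among the 15 not above background were Cxcl13 at 5.18, Ccl20 at 5.12, Cxcl12 at 4.33 and Ccl19 at 4.10, and Cxcl5 was the dimmest at 3.43.

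The NF-kB element, searched as GGGNNTTTCC on both strands in the same windows, occurred in 5 of 30 windows of chemokine genes, or 16.7%, against 1.57% of all windows. The 5 genes were Ccl9, Cxcl2, Cxcl3 and Cxcl1, all above background, and Ccl20, which was not. In maturation genes the letters stood in 5 of 29 windows, which belonged to 3 of the 24 genes with a window, Tnfrsf9 among them. The stretches of the 4 chemokine genes above background and of Tnfrsf9 are given so that the elements can be compared, with the matching letters in capitals (on the opposite strand they read GGAAANNCCC), at chr11:83578637-83578701 for Ccl9 (minus strand), chr5:90903772-90903860 for Cxcl2 (plus), chr5:90785998-90786067 for Cxcl3 (plus), chr5:90891126-90891213 for Cxcl1 (plus) and chr4:150927926-150927995 for Tnfrsf9 (plus).
Ccl9: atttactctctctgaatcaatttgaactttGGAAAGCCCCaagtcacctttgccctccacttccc
Cxcl2: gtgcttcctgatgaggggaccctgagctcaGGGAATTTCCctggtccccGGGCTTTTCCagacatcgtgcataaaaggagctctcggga
Cxcl3: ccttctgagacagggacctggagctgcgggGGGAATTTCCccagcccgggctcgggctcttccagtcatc
Cxcl1: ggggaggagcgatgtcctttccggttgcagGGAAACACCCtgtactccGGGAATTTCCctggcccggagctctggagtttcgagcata
Tnfrsf9: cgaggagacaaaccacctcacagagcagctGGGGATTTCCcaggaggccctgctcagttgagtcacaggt

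Cxcl2 and Cxcl1 each held 2 matches and the others 1. Neighbouring genes of 1 cluster are near copies, so Cxcl1, Cxcl2 and Cxcl3 are not independent cases.

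Receptors for chemoattractants also ranged widely, with 19 of 34 above background, or 55.9%, near the 57.6% of all genes apart from the receptors. C3ar1 at 16.54 and Ccr7 at 16.32 led, then Cxcr4, the receptor for CXCL12, at 13.58, the prostaglandin E2 receptor gene Ptger4 at 13.56, the oxysterol receptor gene Gpr183 at 12.36, Ccrl2 at 11.47, Ccr2 at 10.43, the B cell zone receptor gene Cxcr5 at 10.11 and Ccr9 at 9.46. Lower levels were those of Ccr1 at 8.18, S1pr2 at 8.15, Cmklr1 at 7.49, Ccr4 at 7.33, Ccr3 at 7.08, S1pr4 at 6.79, Ccr6 at 6.55, S1pr1 at 6.39, Cxcr3 at 6.18 and Cx3cr1 at 6.17. S1pr3 at 5.33 and Ptger2 at 5.29 lay just under the background level. The scavenging receptor genes Ackr4, Ackr2, Ackr3 and Ackr1 lay between 3.17 and 4.48, and Xcr1 at 3.50, Cxcr6 at 4.46, Ccr10 at 4.12 and Ccr8 at 3.62 were not above background.

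**Figure D3:**
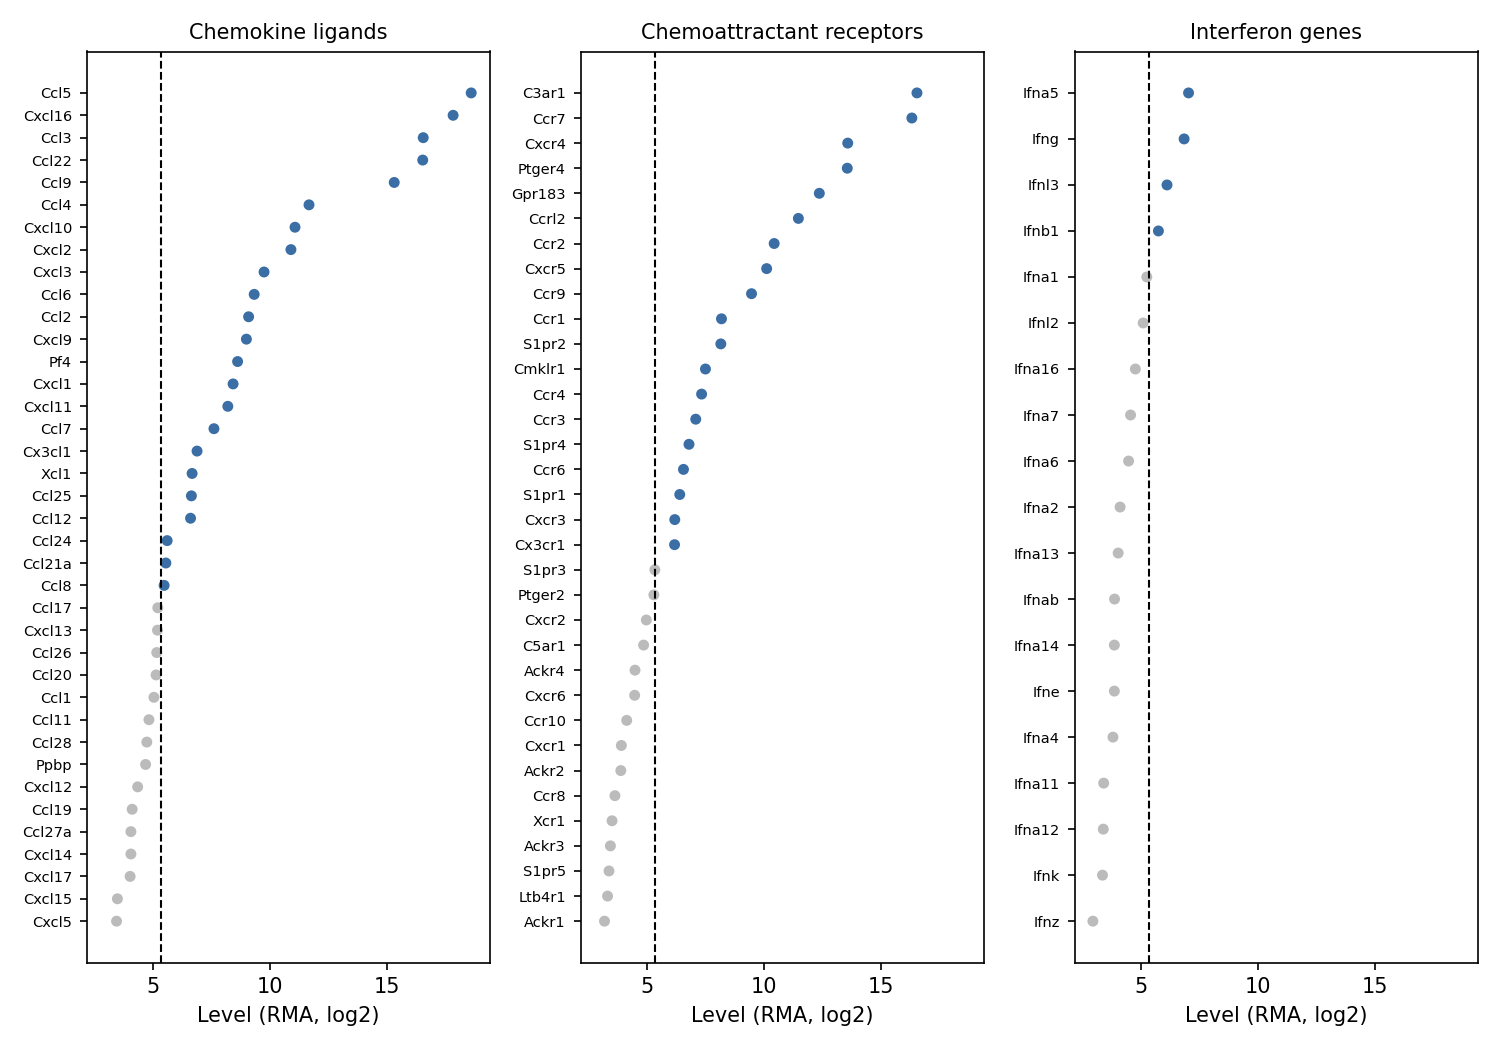
Levels of chemokine ligand, chemoattractant receptor and interferon genes in the control array (horizontal axis, RMA log2), ordered by level, 1 point per gene. Ccl5 at 18.60 and C3ar1 at 16.54 head their groups, whereas no interferon gene exceeds 7.03, and the dashed line marks the background level of 5.35.

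Both arms of antigen presentation were bright. All 23 measured genes of the class I pathway were above background, with a median of 14.30, led by B2m and by the heavy chain gene H2-K1 at 17.16, the proteasome activator gene Psme1 at 17.06 and the chaperone gene Calr at 16.98, and ending with the non-classical genes H2-T24 at 9.80, Cd1d1 at 9.63 and Mr1, which ranked 6884. Heavy chain genes resemble one another closely, and their probe sets may share signal. For class II 13 of 14 were above, with the chains H2-Aa at 15.59, H2-Eb1 at 14.36 and H2-Ab1 at 13.29, the thiol reductase gene Ifi30 at 15.61, the ubiquitin ligase gene Marchf1, which removes class II from the surface, at 11.59 and the transactivator gene Ciita at 10.03. H2-Oa and H2-Ob, which restrain peptide loading, were at 7.81 and 6.52, and H2-Eb2 at 5.01 was not above background.

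Receptors for cytokines, sugars and antibodies gave a myeloid and lymphoid mix. Of 35 cytokine receptor genes 29 were above background, or 82.9%. Csf2rb, the shared beta chain for interleukin 3 and GM-CSF, led at 14.72. Tnfrsf1b at 14.32, Il7r at 14.21, Il10ra at 13.74 and Kit followed. Flt3, the receptor for the ligand in which the cells were grown, stood at 9.83, and Il12rb1 at 3.70 was the dimmest. Of 39 lectin and Fc receptor genes 27 were above, or 69.2%, beside 57.6% of all genes apart from the olfactory and vomeronasal receptors. They were led by the signalling chain gene Fcer1g at 17.02, the inhibitory receptor gene Lilrb4a at 16.45, Clec4a3 at 14.99, Pirb at 14.77 and Clec4a1 at 14.65. Clec1a at 2.72 and Cd209a at 3.24 closed this list. The B cell receptor-like cascade of plasmacytoid cells had 16 of 18 genes above background, with Pik3ap1 at 15.27, Ptpn6 at 14.73, Vav1 at 14.30, Tyrobp at 13.56, Syk at 13.35 and Blnk at 11.78, but Cd79a and Bank1, at 3.93, were not.

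Motility genes stood at the top. All 43 measured actin and actomyosin genes were above background, and their median of 15.11 outranked 98.2% of genes, with 15 of them among the 200 brightest. Beside Actb, Tmsb4x, Fscn1, Cdc42 and Arpc2 these included the actin regulators Pfn1 at 17.45, Cap1 at 17.03, Rac1 at 16.96 and Myo1g at 16.84. The haematopoietic GTPase gene Rac2 was at 15.17, its exchange factor genes Dock8 and Dock2 at 14.77 and 13.12, Flna at 14.81 and Coro1a at 14.00. The dimmest were Rhoh at 6.42 and Was, the Wiskott-Aldrich syndrome gene, at 5.59, near background. Of 34 integrin and adhesion genes 26 were above, or 76.5%, beside 57.6% of all genes apart from the olfactory and vomeronasal receptors. They were led by Selplg, the selectin ligand, at 16.85, Cd47 at 16.31, Cd44 at 15.54, Itgb1 at 14.96 and Itgam at 14.69. The endothelial selectin genes Sele at 3.14 and Selp at 4.09 and the platelet collagen receptor gene Itga2 at 3.91 were not.

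Core machinery was bright, over a range of levels, and most of its members at background were copies that other tissues use. Of 75 genes with ribosomal protein symbols 72 were above background, with a median of 14.90 and 24 among the 200 brightest, and without kinases and other symbols that are not subunits these were 63 of 65, with a median of 15.11. Rps23 led at 18.28, then Rpl17 and Rpl15 at 17.35 each, Rpl41 at 17.32 and Rps6 at 17.26, while Rplp0 at 12.38, Rpl27 at 11.67 and Rpl36 at 11.50 were lower. The muscle copy Rpl3l at 3.57 and the germ cell copy Rpl39l at 4.74 were not above background, and Rps6kl1 at 2.56 encodes no ribosomal protein. All 30 translation factor genes were above, between Eif3i at 9.43 and Eef1a1 at 18.83. Of 39 proteasome genes 37 were above, with Psmb8 at 15.94, Psma6 at 15.45, Psmb7 at 15.03 and Psmd9 at 8.64, and the exceptions were the germ cell subunit gene Psma8 at 4.28 and the thymic Psmb11 at 4.05.

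Respiratory chain genes were bright too. Of 97 symbols of oxidative phosphorylation 90 were above background, with a median of 11.91, or 79 of 85 without assembly factors, with a median of 12.32. Cox7c stood at 17.32, Uqcrb at 17.20, Atp5b at 16.42, Atp5a1 at 16.14 and Atp5md at 15.91. Tissue-restricted subunits were among the 7 that were not, such as Cox8b at 3.21, Ndufa4l2 at 3.79, Cox6b2 at 4.01, Cox4i2 at 4.44, Cox7b2 at 4.71 and Cox8c at 4.99. In glycolysis 21 of 23 were above, with Gapdh at 17.02, Pkm at 16.86, Aldoa at 16.56, the glucose transporter gene Slc2a1 at 14.83 and Ldha at 14.17, whereas Ldhb at 5.34 and the muscle mutase gene Pgam2 at 4.11 were not.

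The secretory and degradative organelles were well supplied. All 45 measured genes of the endoplasmic reticulum were above background, with a median of 13.18, among them the glycosylation genes Dad1 at 16.87 and Ost4 at 16.57, the chaperone gene Hspa5 at 16.85, Herpud1 at 15.17, Xbp1, the regulator of secretory capacity, at 14.47 and Atf4 at 14.30. Syvn1 at 7.65 and Derl3 at 7.40 were the dimmest. Of 36 genes of the proton pump and lysosomal proteases 28 were above, or 77.8%, beside 57.6% of all genes apart from the olfactory and vomeronasal receptors. They were led by Ctsb at 17.17, Ctsz at 16.80, Ctsh at 15.92, Ctss and Ctsc at 15.16. The kidney pump subunit genes Atp6v1b1 at 3.19 and Atp6v0a4 at 4.42 and the granulocyte protease gene Ctsg at 2.88 were not.

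Proliferation genes were mostly above background. Of 46 cell cycle genes 45 were, or 97.8%, with a median of 9.96 that outranked 76.9% of genes. The DNA clamp gene Pcna was at 16.38 and the tubulin gene Tuba1b at 16.77, both also used outside division, then came Mki67 at 12.84, Rrm1 at 12.32 and Mcm6 at 11.96. The mitotic genes Plk1 at 10.18, Top2a at 9.79, Cdk1 at 8.22 and Cdc20 at 7.01 were less bright, Tk1 was at 5.85 and Cdc25c at 4.77 was not above background. Of 84 histone genes 60 were above, or 71.4%, beside 57.6% of all genes apart from the olfactory and vomeronasal receptors. H2az1 was at 16.12, H2ac22 at 15.27 and H3f3b at 15.10, and the germ cell variants H2bl1 and H2bfm at 2.70 and 2.75 were the dimmest. H3c13, H3c14 and H3c15 had 1 common value of 14.35, so copies of the same histone were not told apart. In apoptosis control 21 of 24 were above, with Casp8 at 15.69, Mcl1 at 15.40 and Bcl2l11, which encodes the death factor BIM, at 14.15, against Bik at 4.74, Bok at 4.63 and Bbc3 at 4.55.

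**Figure D4:**
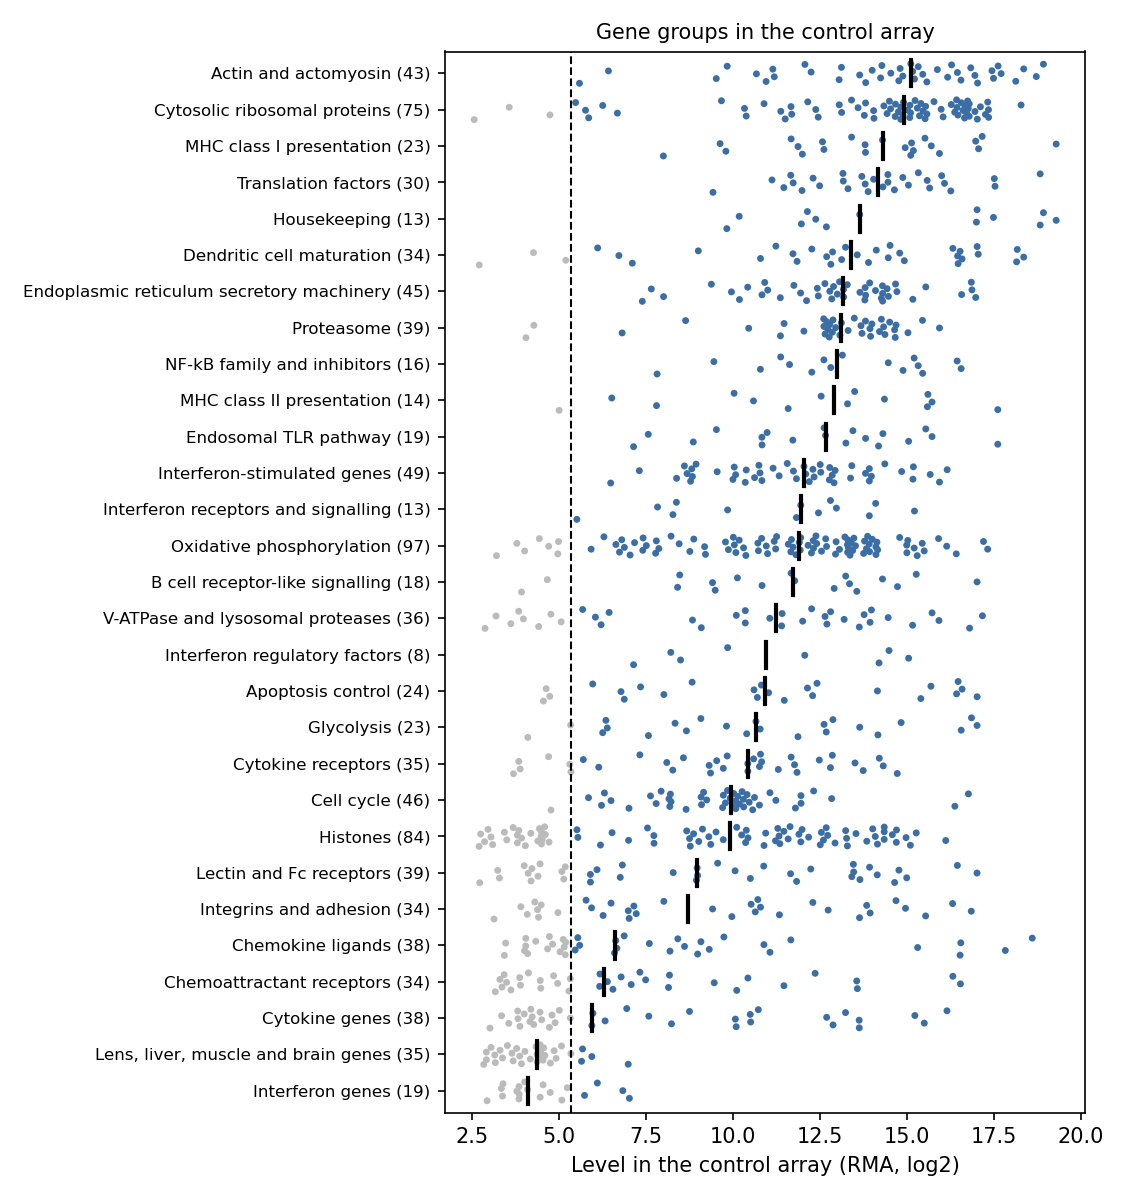
Levels of the genes in the other groups in the control array (horizontal axis, RMA log2), 1 point per gene, with the number of measured genes in brackets and black bars for medians. Actin genes have the highest median, 15.11, and interferon genes the lowest, 4.10; grey points lie below the background level of 5.35 (dashed line).

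Grouping genes by the letters that begin their symbols gave 331 families of 8 or more. In 34 every measured member was above background and in 14 none was. By median level the first 10 were ribosomal proteins (Rpl, 15.46, and Rps, 14.60), proteasome subunits (Psma, 14.04, Psmb, 13.88, and Psmd, 12.81), the chaperonin genes Cct at 13.69, Sf, chiefly splicing factors, at 12.72, Atf at 12.61, the deadenylase genes Cnot at 12.36 and the transcription elongation genes Supt at 12.19. The last 10 were the homeobox clusters Hoxc at 3.23, Hoxd at 3.30 and Hoxb at 3.38, the clustered protocadherins Pcdhb at 3.27, Nlrp at 3.43, the glucuronidation genes Ugt at 3.51, the axonemal dyneins Dnah at 3.59, the homeobox genes Dlx at 3.60, the sperm fibre genes Odf at 3.60 and the pheromone genes Esp at 3.60. None of 20 Pcdhb, 10 Dnah and 8 Dlx genes was above background. Some dim families had 1 bright member: Cst3 at 18.15 in a family of 8 cystatin genes with a median of 3.79, Lcn2 at 13.21 among 10 lipocalins with a median of 3.84, and the adenylate cyclase gene Adcy6 at 13.42 among 10 with a median of 3.75.

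Bright and dim genes also differed in features that the ranking did not use. The 200 brightest genes spanned a median of 9.50 kb in RefSeq, the other genes above background 23.2 kb and those not above it 15.8 kb. In promoter windows the median CpG count over that expected from base composition was 0.71 for the 200 brightest, 0.75 for the other genes above background, 0.36 for genes not above it and 0.11 for the receptor genes, whose windows were 35.7% G and C against 60.0% in the brightest. The ISRE letters occurred in 8.29% of 205 windows of the brightest genes, 3.20% of those of other genes above background, 2.96% of those not above it and 6.15% of the AT-rich receptor windows. The NF-kB letters occurred in 6.83%, 1.59%, 1.43% and 1.39% in the same order. The TATA letters, searched as TATAAA on both strands, stood in 16.1%, 7.49%, 14.7% and 39.6%. Shares move with base composition and were not tested.

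**Figure D5:**
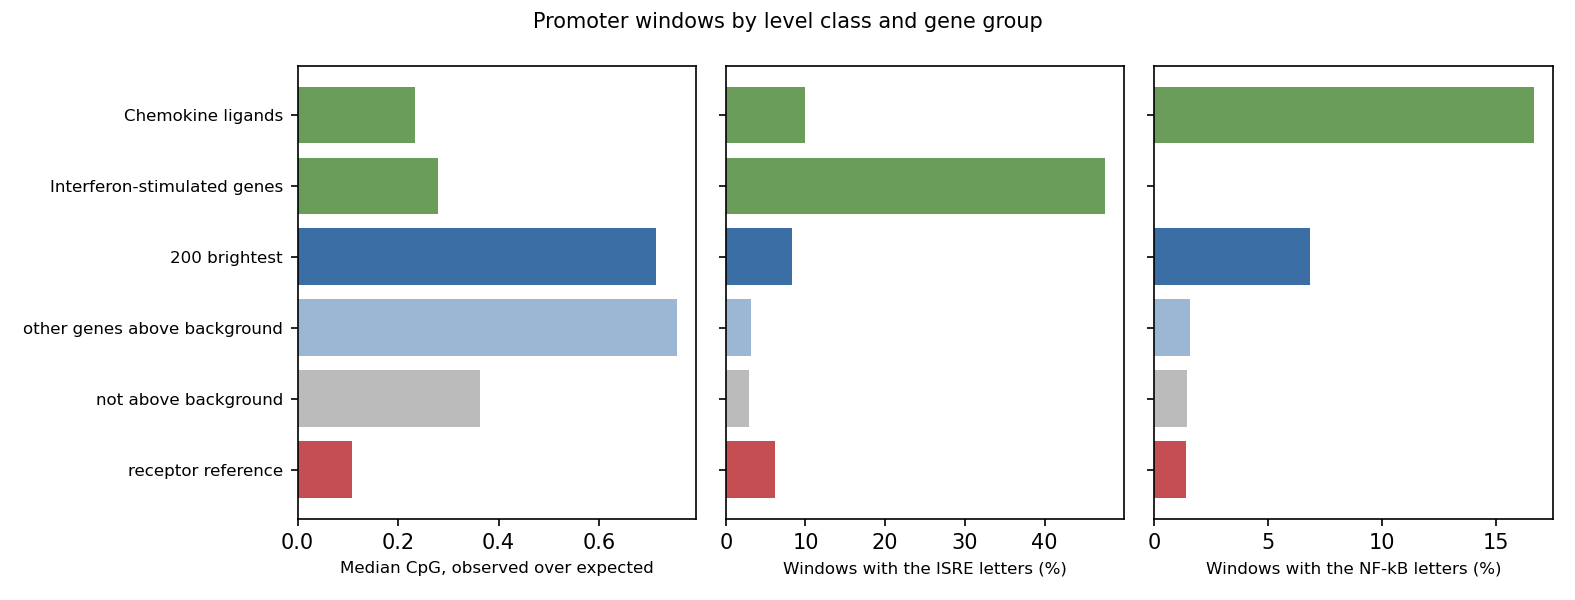
Median CpG count over that expected (left), share of promoter windows with the ISRE letters (middle) and with the NF-kB letters (right) by level class and for 2 gene groups, in percent of windows. The ISRE share is 47.6% in interferon-stimulated genes and the NF-kB share 16.7% in chemokine genes, against 8.29% and 6.83% in the 200 brightest.

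By chromosome, the share of genes above background, receptor genes left out, ran from 43.2% on X to 64.7% on chromosome 19, and on Y it was 16 of 32. Chromosome 11 held 19 of the 200 brightest genes among its 1395, and chromosome 9 held 17 of 997. Over all genes, receptor genes included, 1.03% were among the 200 brightest.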

How the data were processed

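RNA of 3 samples was hybridised to 1 whole-transcript array each, and the control array alone is described. The deposited log2 values, 1 per probe set and array (28846 probe sets), were made by the authors with RMA, per the submitters' processing notes; software and RMA variant were not given in the sources used here, and base 2 was taken from the values' range. Precision is limited by the number of arrays.

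The platform annotation of 2019 named 19572 probe sets, and for genes with several the one with the highest mean over 3 arrays was kept. Of the 19505 genes, 19502 were found in RefSeq (GRCm38.p6), and 15691 had 1 or more promoter windows there. Background was the 95th percentile of 1412 receptor genes (1091 olfactory, 321 vomeronasal). No test, p-value or difference between arrays was computed. Gene groups were matched by exact symbol, and a listed gene without a named probe set was not analysed here.

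Groups and members were chosen with earlier results of these data known. Named by rule were the 30 brightest genes, the 5 brightest and 2 dimmest of each group, members not above background, interferon, IRF, chemokine and receptor genes, and the 10 first and last symbol families. Other names, the motifs and the printed windows were chosen after values were seen. Predicted genes, clones and small RNAs were counted only. On simulated levels, 9989 of 10000 active and 343 of 8093 silent genes passed the background level. There the silent genes were drawn like the receptor genes and the active genes far above them. These shares were therefore fixed by the setting and only check the code, not the control array. Python 3.11.15, numpy 2.4.6, pandas 2.3.3 and matplotlib 3.10.9 were used.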

Additional observations from a re-analysis of the deposited data

How the results depend on the processing

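The number of genes above background was 10490 and ran from 8303 with the highest antigenomic control as the level (6.82, added after the data were seen) to 11363 with the 90th percentile of receptor genes, and was 9604 with the 99th, which stayed within 1.5 times. With olfactory or vomeronasal genes alone as reference, the mean or the lowest probe set of a gene, or the mean over 3 arrays, all 41 group counts stayed within 1.5 times. Only 55 of the 19505 genes had several probe sets, so the settings on probe sets could move few counts and say little about probe choice. With the 90th percentile 7 neutrophil genes were above in place of 4, and with the antigenomic level 3 B and plasma cell genes in place of 5. That level moved 6 of 41 group counts past 1.5 times, among them interferon genes to 2, and the 99th percentile moved 2. Taking the 100 or the 500 brightest genes, scaled to 200, moved 13 of 41 counts each, among them maturation genes from 10 to 5 with the 500, and class I genes from 5 to 8 and housekeeping genes from 6 to 12 with the 100, while leaving out predicted genes, clones and small RNAs moved 0. No paired analysis was possible because each group has 1 array.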

Other observations

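Of 2615 further transcript probe sets with no gene name in the annotation, 1229, or 47.0%, were above background in the control array. Of these 62 were at least as bright as the 200th named gene, and the brightest stood at 19.67, above every named gene. Among predicted genes 141 of 447 were above background, among numbered clones 204 of 594 and among small RNAs 5 of 16.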
